A study of Mus musculus with 59 samples.

Results

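The metallothioneins Mt1 and Mt2, the metal-sensing transcription factor Mtf1 and the zinc transporters Slc39a14 and Slc30a1 were described across 8 groups of muscle samples from mice with human melanoma xenografts. The 5 genes were taken by their symbols from the 47643 gene symbols of the deposited table, and each symbol was found. The series held 59 RNA-seq libraries of diaphragm (Dia), tibialis anterior (TA) and soleus (SOL) muscle from female NCI Ath/nude mice, 4 months old, which lack a thymus. All mice carried a melanoma grown from human tumor tissue. The cachectic xenograft causes wasting and the non-cachectic one spares the muscles, and since each condition was represented by 1 xenograft, cachexia and other differences between the tumors cannot be told apart. The diaphragm groups received recombinant Fibcd1 (rFibcd1), a muscle-secreted protein, by intraperitoneal injection, or its vehicle (mock), PBS with BSA. Under the cachectic melanoma there were 10 mock and 10 rFibcd1 libraries, and under the non-cachectic one 9 and 10. The TA and SOL groups held 5 cachectic and 5 non-cachectic libraries each, and their labels name no injection.

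Metallothioneins are small cysteine-rich proteins that bind zinc and copper in the cytosol. Zinc that enters the cytosol activates Mtf1, which binds metal response elements (MREs) in the promoters of Mt1, Mt2 and Slc30a1. Slc39a14 (ZIP14) brings zinc, iron and manganese into cells and is known as an acute-phase gene of the liver, while Slc30a1 (ZnT1) exports zinc across the plasma membrane. Glucocorticoids and interleukin-6 are also known inducers of metallothioneins, and ZIP14 has been linked to muscle wasting in cancer.

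Mt2 and Mt1 are neighbors on chromosome 8 of GRCm38, both on the plus strand and both with 3 exons (GENCODE M21). Mt2 spans chr8:94172664-94173568 and Mt1 spans chr8:94179082-94180327, with 5513 bases between them. Slc30a1 lies at chr1:191906767-191913247 on the plus strand with 2 exons, Mtf1 at chr4:124802104-124849800 on the plus strand with 11 exons, and Slc39a14 at chr14:70303469-70351425 on the minus strand with 10 exons. Because Mt1 and Mt2 are alike, their transcripts were checked for shared sequence. None of 1292 windows of 50 bases from Mt1 transcripts, and none of 554 from Mt2 transcripts, occurred in a transcript of another annotated gene. The longest run of identical bases between Mt1-201 and Mt2-201 was 20 bases.

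The promoters of Mt1, Mt2 and Slc30a1 are shown because Mtf1 acts through MREs and these genes are its textbook targets. They come from RefSeq promoter windows on GRCm38.p6, which run from 250 bases before to 50 bases after the start, and 4 of the 5 genes had one (Slc39a14 did not). The stretch before the RefSeq or the GENCODE start, whichever came first, is printed 5′ to 3′ on the plus strand. It holds 250 bases for Mt2, 243 for Mt1 and 236 for Slc30a1. Capitals mark each match in it to the MRE core, searched as TGCACNC and TGCGCNC on both strands. The stretches are chr8:94172368-94172617 for Mt2, chr8:94178839-94179081 for Mt1 and chr1:191906531-191906766 for Slc30a1.
Mt2: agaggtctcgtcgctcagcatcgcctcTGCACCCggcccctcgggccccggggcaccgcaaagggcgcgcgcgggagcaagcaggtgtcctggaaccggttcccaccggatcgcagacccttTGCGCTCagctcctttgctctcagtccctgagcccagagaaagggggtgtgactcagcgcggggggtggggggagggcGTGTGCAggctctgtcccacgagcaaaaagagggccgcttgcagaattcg
Mt1: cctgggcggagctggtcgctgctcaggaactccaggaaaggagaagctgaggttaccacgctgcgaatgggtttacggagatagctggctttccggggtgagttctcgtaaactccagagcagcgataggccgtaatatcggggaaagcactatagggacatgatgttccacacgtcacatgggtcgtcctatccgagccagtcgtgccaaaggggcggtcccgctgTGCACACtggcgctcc
Slc30a1: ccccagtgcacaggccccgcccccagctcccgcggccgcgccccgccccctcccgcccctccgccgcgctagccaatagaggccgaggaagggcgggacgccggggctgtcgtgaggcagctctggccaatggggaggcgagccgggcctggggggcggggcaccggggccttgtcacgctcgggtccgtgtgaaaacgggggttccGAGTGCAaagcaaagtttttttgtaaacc

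The whole window held 4 core matches for Mt2, 3 for Mt1, 2 for Slc30a1 and 0 for Mtf1. Of 32851 promoter windows in the RefSeq table, 25.7% held at least 1 match, 1.97% at least 3 and 0.517% at least 4. A match describes the letters only and is not evidence of binding.

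Values are TPM, a measure of transcript abundance scaled for transcript length and library total, so that levels of different genes may be set side by side. Each library summed to 1e+06 TPM, and the sequencing depth is therefore unknown. Genes above 0 numbered 17950 to 19456 per Dia library, 16436 to 17673 per TA library and 17514 to 18191 per SOL library. The summed TPM of 8 skeletal muscle markers, which include the muscle actin Acta1, ranged from 37758.6 to 88663.5, and no marker of that list was at 0 throughout a group. Libraries were of 2 kinds by the pseudogene Pcna-ps2, at 1 TPM or more (high state) or below (low state). All 5 cachectic libraries of TA and of SOL were in the high state and all 5 non-cachectic ones in the low state, so that state and melanoma cannot be told apart there. In the diaphragm the high and low states held 9 and 1 cachectic mock, 8 and 2 cachectic rFibcd1, 3 and 6 non-cachectic mock and 6 and 4 non-cachectic rFibcd1 libraries. In the mock diaphragm, the mitochondrially encoded share of TPM was 38.1% ± 3.18 (SD, n = 10) with the cachectic melanoma against 47.5% ± 2.97 (SD, n = 9). It was 37.6% ± 5.62 against 43.9% ± 2.95 with rFibcd1 (SD, n = 10 each), 38.8% ± 8.12 against 48.5% ± 1.80 in TA and 30.5% ± 3.92 against 41.1% ± 2.00 in SOL (SD, n = 5 each). The median log2 fold change of all genes tested was above 0, at 0.20 in the mock diaphragm, 0.08 with rFibcd1, 0.41 in TA and 0.09 in SOL, and small changes are to be read against these shifts.

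Mt2 was the lower of both metallothioneins in non-cachectic muscle. In the non-cachectic mock diaphragm it ranged from 11.8 to 55.0 TPM with a median of 28.7 TPM (n = 9), and in the cachectic mock diaphragm from 65.6 to 3572 TPM with a median of 658 TPM (n = 10). Each cachectic mock library was above each non-cachectic mock one. In TA, the non-cachectic libraries held 2.94, 3.15, 5.06, 10.5 and 12.1 TPM and the cachectic libraries 487, 758, 962, 1130 and 7579 TPM. In SOL, they held 11.1, 13.9, 17.2, 18.2 and 18.2 TPM against 121, 236, 386, 824 and 1899 TPM. The groups did not overlap in either limb muscle, and 1 library of each cachectic group stood well above the other 4. How many of all genes were apart in this way was not counted, here or for the genes below. In TA the groups were apart for each gene described here, Mtf1 included. The plot of Mt1 and Mt2 by library shows how widely the cachectic groups were spread.

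**Figure D1:**
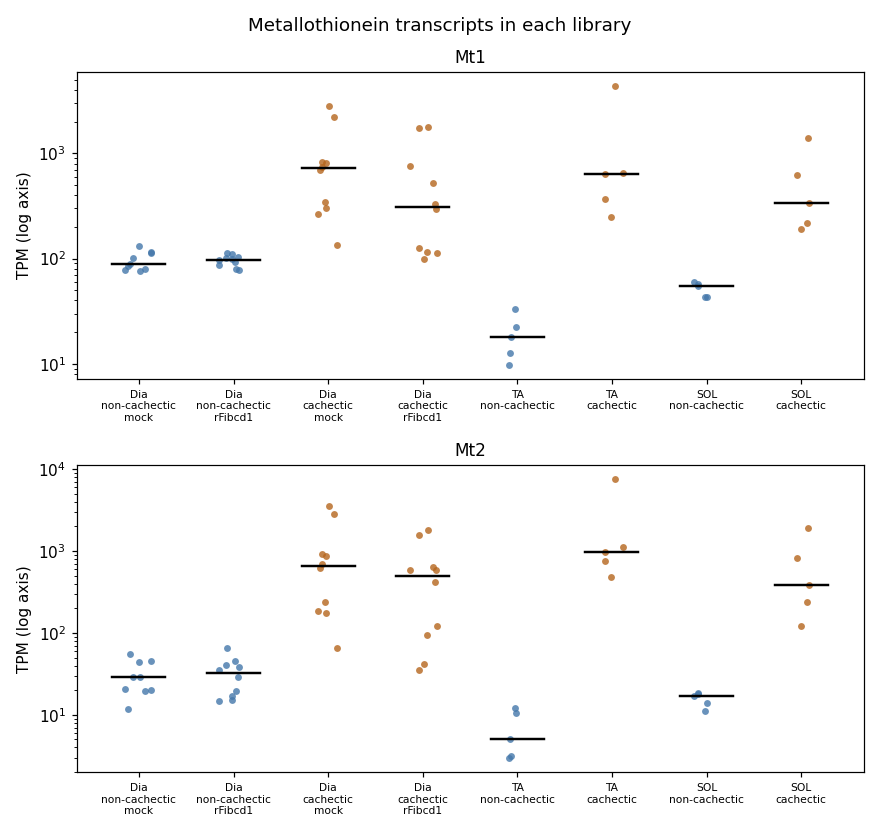
TPM of Mt1 (top) and Mt2 (bottom) on a log axis in each of the 59 libraries, by group; points are libraries, blue for non-cachectic and brown for cachectic melanoma, and black bars are group medians. Mt2 lay between 2.94 and 66.1 TPM in the non-cachectic libraries and between 35.5 and 7579 TPM in the cachectic ones.

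Mt1 spanned a smaller range than Mt2, from 9.72 to 4400 TPM over all libraries. It lay between 76.7 and 133 TPM with a median of 88.5 TPM in the non-cachectic mock diaphragm (n = 9) and between 134 and 2851 TPM with a median of 727 TPM in the cachectic mock diaphragm (n = 10). The lowest cachectic library, at 133.7 TPM, was thus just above the highest non-cachectic one, at 133.3 TPM. In TA, the non-cachectic libraries held 9.72, 12.7, 17.9, 22.2 and 33.2 TPM and the cachectic libraries 250, 370, 642, 651 and 4400 TPM. In SOL, Mt1 was at 42.7, 43.5, 54.5, 56.9 and 60.3 TPM against 193, 219, 337, 627 and 1408 TPM. Within the cachectic mock diaphragm the standard deviation was about as large as the mean for both genes, with Mt1 at 922 ± 901 TPM and Mt2 at 1018 ± 1202 TPM (SD, n = 10).

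The cachectic and non-cachectic groups were compared by limma on log2(TPM + 1), with adjustment over all genes tested (the plot of fold changes). In mock-treated mice, the log2 fold change of Mt2 was 4.22 (SE 0.650, adjusted p = 2.64e-05), or 33.4-fold between group means. Mt1 rose by 2.69 (SE 0.477, adjusted p = 0.000122), or 9.54-fold. In this comparison 33.5% of 13426 genes were called, and 3 of the 5 genes were among them. In TA, Mt2 rose by 7.52 (SE 0.628, adjusted p = 1.52e-05) and Mt1 by 5.24 (SE 0.625, adjusted p = 0.000183). Between group means these were 324-fold and 65.9-fold, between medians 190-fold and 35.8-fold, and between means without cachectic library 8 they were 124-fold and 25.0-fold. All 5 genes were called in TA, where 60.2% of genes were. This count was 2 with median-ratio scaling and 3 without TA non-cachectic library 61, 63 or 64. In SOL, where 25.1% of genes were called, Mt2 rose by 4.76 (SE 0.586, adjusted p = 0.000352) and Mt1 by 3.00 (SE 0.450, adjusted p = 0.00111). Without the 3 libraries of column number 8, which held the highest metallothionein levels of the limb groups, Mt2 still rose by 3.96 in the mock diaphragm, 6.87 in TA and 4.23 in SOL, and Mt1 by 2.49, 4.58 and 2.57. Among high-state diaphragm libraries alone, Mt2 rose by 4.13 (adjusted p = 0.0257) and Mt1 by 2.98 (adjusted p = 0.0255) in the mock groups.

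**Figure D2:**
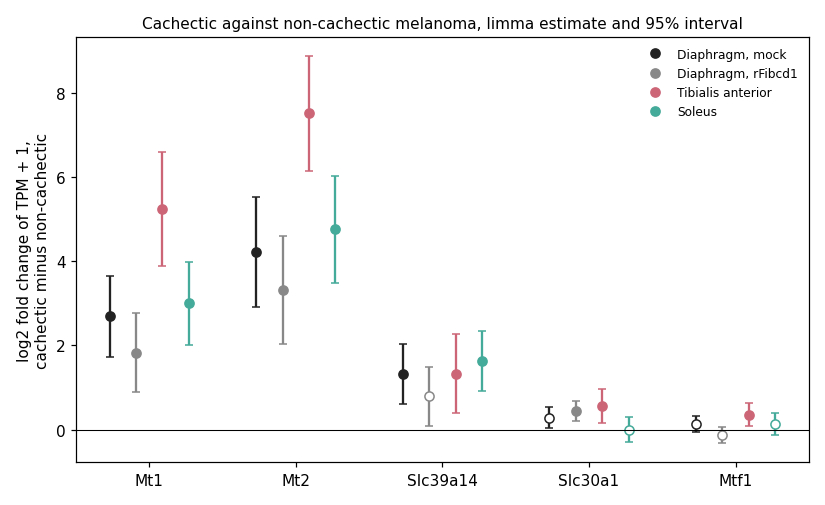
Log2 fold change of TPM + 1, cachectic minus non-cachectic, for the 5 genes (x axis) in the 4 comparisons (colors), with limma's 95% interval; filled points were called at an adjusted p under 0.05 and open points were not. Mt2 had an estimate between 3.32 and 7.52 in each comparison, while estimates of Mtf1 lay between -0.14 and 0.35.

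Mt2 also gained relative to Mt1. The ratio of Mt2 to Mt1 TPM within a library was 0.315 ± 0.144 (SD, n = 9) in mock diaphragm with the non-cachectic melanoma, 0.342 ± 0.112 (SD, n = 5) in non-cachectic TA and 0.304 ± 0.0305 (SD, n = 5) in non-cachectic SOL. With the cachectic melanoma it was 0.898 ± 0.279 (SD, n = 10), 1.79 ± 0.215 (SD, n = 5) and 1.103 ± 0.290 (SD, n = 5). In cachectic TA each of the 5 libraries therefore held more Mt2 than Mt1. The test of this ratio was chosen after the values were seen. The mean log2 ratio was higher in the cachectic group by 1.57 in the mock diaphragm (two-sided exact permutation test, p = 5.41e-05, adjusted over 6 comparisons 0.000325). It was higher by 2.45 in TA and by 1.81 in SOL, each with an exact permutation p of 0.00794, the smallest that 5 against 5 allows (adjusted p = 0.0119). With rFibcd1 the difference in the diaphragm was 1.53 (permutation test, p = 0.00069, adjusted p = 0.00207). Library state was set beside this ratio, with no test between states. In the non-cachectic mock group it was 0.261 to 0.622 in the 3 high-state libraries and 0.137 to 0.375 in the 6 low-state ones, which overlap. In the cachectic mock group it was 0.577 to 1.27 in the 9 high-state libraries and 0.490, below all of these, in the 1 low-state library. In the cachectic rFibcd1 group it was 1.01 ± 0.524 in the high state (SD, n = 8) and 0.844 ± 0.0785 in the low state (SD, n = 2). In the non-cachectic rFibcd1 group, where the states also did not overlap, it was 0.443 ± 0.105 in high-state libraries (SD, n = 6) and 0.176 ± 0.0487 in low-state ones (SD, n = 4). Among high-state libraries alone the log2 ratio was higher in the cachectic group by 1.17 in the mock diaphragm (9 against 3 libraries, exact permutation p = 0.00909, adjusted over 2 comparisons 0.0182) and by 1.01 with rFibcd1 (8 against 6, exact permutation p = 0.0270, adjusted 0.0270). A ratio within a library does not depend on the scaling of that library.

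**Figure D3:**
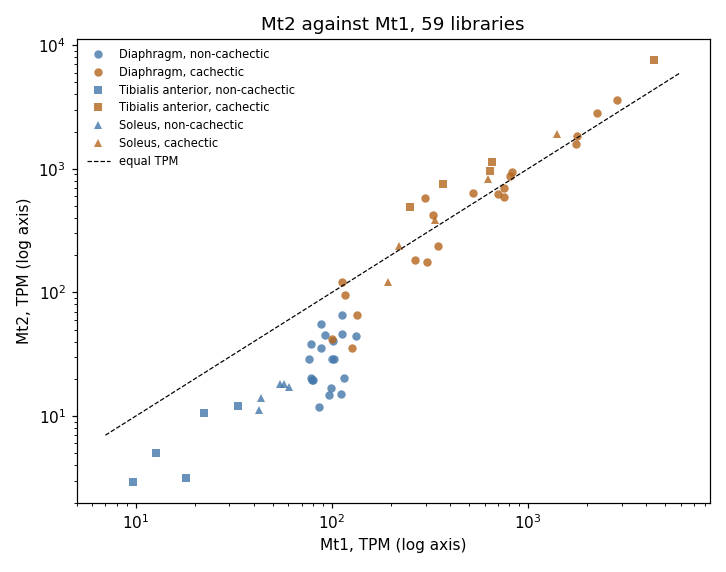
Mt2 against Mt1 TPM, both on log axes, in each of the 59 libraries; shapes give the muscle, colors the melanoma, and the dashed line equal TPM. Non-cachectic libraries lay below the line, and the 5 cachectic TA libraries lay above it, at ratios of 1.498 to 2.05.

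Slc39a14, the ZIP14 importer, was at low levels in non-cachectic muscle and rose in the 3 comparisons without rFibcd1. In the non-cachectic mock diaphragm it ranged from 3.43 to 10.6 TPM with a median of 3.90 TPM (n = 9), and in the cachectic mock diaphragm from 4.01 to 105 TPM with a median of 11.2 TPM (n = 10). These groups overlapped, since 3 non-cachectic libraries were at or above the lowest cachectic one. The log2 fold change was 1.32 (SE 0.356, adjusted p = 0.00513), and among high-state libraries alone it was 1.52 and no longer called (adjusted p = 0.0970). In TA, the non-cachectic libraries held 2.16, 2.44, 2.49, 2.57 and 2.96 TPM and the cachectic ones 3.65, 4.96, 6.24, 6.29 and 34.98 TPM. The groups were apart, at a log2 difference of 1.32 (SE 0.433, adjusted p = 0.0223), and 0.81 without the library at 34.98 TPM (adjusted p = 0.000455). With median-ratio scaling the change in TA was 0.91 and missed the threshold (adjusted p = 0.0519), as it did with no filter on low values (adjusted p = 0.0516). In SOL, values were 4.89, 4.90, 4.97, 5.64 and 6.21 TPM against 9.31, 13.0, 17.3, 20.2 and 48.7 TPM. The SOL groups did not overlap, and the log2 fold change was 1.63 (SE 0.327, adjusted p = 0.00485).

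Slc30a1, the ZnT1 exporter, changed far less than the metallothioneins. In the mock diaphragm it was at 8.34 ± 0.976 TPM (SD, n = 9) and 10.6 ± 3.03 TPM (SD, n = 10), and the log2 difference of 0.28 missed the threshold (SE 0.123, adjusted p = 0.0748). Leaving out cachectic library 22 brought it to 0.36 (adjusted p = 0.0114), and leaving out cachectic library 34 to 0.33 (adjusted p = 0.0438). With library state as a term it was 0.15 (adjusted p = 0.488), and with median-ratio scaling 0.07 (adjusted p = 0.690). In TA, libraries held 4.59, 5.13, 5.31, 5.54 and 6.22 TPM against 6.30, 6.87, 6.89, 8.92 and 14.3 TPM. The groups were apart, and the log2 fold change was 0.55 (SE 0.187, adjusted p = 0.0258), but it was 0.11 with median-ratio scaling and not called (adjusted p = 0.334). In SOL the estimate was -0.00, with a 95% interval from -0.29 to 0.29, and each group's values lay within 8.40 to 14.2 TPM.

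Mtf1, the transcription factor itself, had group means between 3.96 and 6.43 TPM. In the mock diaphragm it was at 5.33 ± 0.556 TPM (SD, n = 9) and 5.91 ± 0.685 TPM (SD, n = 10), and differed by 0.12 on the log2 scale (SE 0.0949, adjusted p = 0.305), or by -0.07 with median-ratio scaling. In TA it rose from values of 3.88 to 4.03 TPM to values of 4.38 to 7.34 TPM, by 0.35 on the log2 scale (SE 0.125, adjusted p = 0.0310), which turned to -0.07 with median-ratio scaling and is below the median of all genes. In SOL the change of 0.13 was not called (adjusted p = 0.460), with a 95% interval from -0.13 to 0.40. The plot of transporters and Mtf1 shows these narrow ranges beside the spread of Slc39a14.

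**Figure D4:**
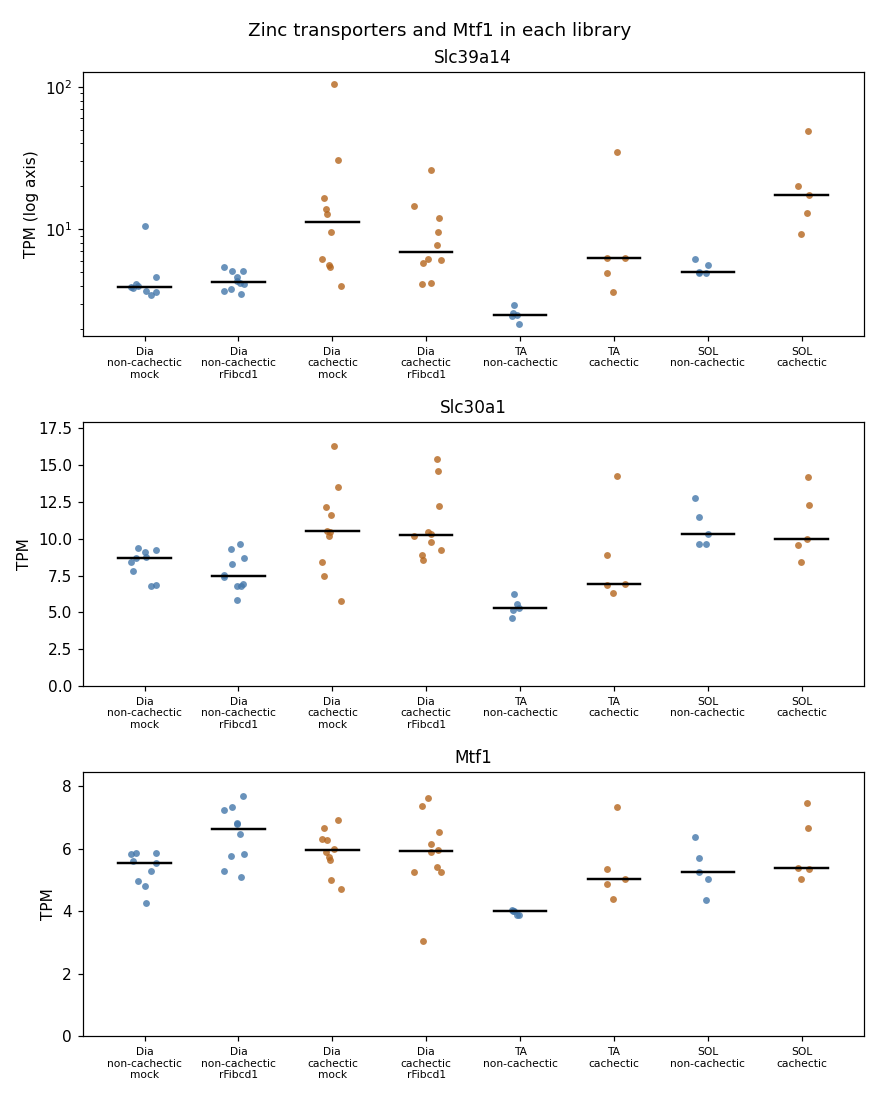
TPM of Slc39a14 (log axis), Slc30a1 and Mtf1 (linear axes from 0) in each library by group; points are libraries, blue for non-cachectic and brown for cachectic melanoma, and black bars are medians. Slc39a14 reached 105 TPM in 1 cachectic mock diaphragm library, while Slc30a1 stayed between 4.59 and 16.3 TPM and Mtf1 between 3.04 and 7.68 TPM.

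Under rFibcd1, the metallothioneins were again higher in the cachectic diaphragm, but the groups overlapped. Mt2 ranged from 14.8 to 66.1 TPM with a median of 32.2 TPM in the non-cachectic rFibcd1 group (n = 10) and from 35.5 to 1827 TPM with a median of 501 TPM in the cachectic rFibcd1 group (n = 10). Of the non-cachectic libraries, 4 were at or above the lowest cachectic one. On the log2 scale Mt2 rose by 3.32 (SE 0.633, adjusted p = 0.00263), Mt1 by 1.82 (SE 0.464, adjusted p = 0.0114) and Slc30a1 by 0.44 (SE 0.120, adjusted p = 0.0163). For these 3 calls the background was 9.11% of 13426 genes. Slc39a14 was higher by 0.79, which missed the threshold (SE 0.347, adjusted p = 0.144), except without cachectic mock library 20, which shares the estimate of spread (adjusted p = 0.0491). Mtf1 differed by -0.14 (adjusted p = 0.372). The 3 calls were not made by the Dunn test (adjusted p of 0.0865 to 0.0905) or among high-state libraries alone, where Mt2 was higher by 2.38 (adjusted p = 0.299), Mt1 by 1.39 (adjusted p = 0.320) and Slc30a1 by 0.38 (adjusted p = 0.305). When a clock-gene index was added to the fit, Slc30a1 was higher by 0.38 and not called (adjusted p = 0.0608).

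Direct comparisons of rFibcd1 with mock gave no call for any of the 5 genes. In the cachectic diaphragm, Mt1 was at 588 ± 653 TPM with rFibcd1 and 922 ± 901 TPM with mock (SD, n = 10 each), a log2 difference of -0.87 with a 95% interval from -1.81 to 0.07 (limma, adjusted p = 0.511). For Mt2 the difference was -0.85 with an interval from -2.13 to 0.43 (adjusted p = 0.651). It was -0.54 for Slc39a14 (interval -1.24 to 0.16), 0.06 for Slc30a1 (interval -0.18 to 0.30) and -0.03 for Mtf1 (interval -0.22 to 0.15). Among high-state libraries alone, the differences were -1.55 for Mt1 (adjusted p = 0.0624) and -1.62 for Mt2 (adjusted p = 0.141). Here 0.0447% of genes were called. In the non-cachectic diaphragm, Mt1 averaged 96.1 ± 11.8 TPM with rFibcd1 (SD, n = 10) and 96.7 ± 19.8 TPM with mock (SD, n = 9). The log2 differences were 0.01 for Mt1, 0.05 for Mt2, -0.01 for Slc39a14, -0.10 for Slc30a1 and 0.23 for Mtf1, with 0.417% of genes called. Mtf1 (adjusted p = 0.264) was called when only the 2 groups compared were fitted (adjusted p = 0.0389). The difference between the cachexia effects with rFibcd1 and with mock was -0.87 for Mt1, -0.91 for Mt2, -0.53 for Slc39a14, -0.26 for Mtf1 and 0.16 for Slc30a1. None of these was called, with 0.0223% of genes called. Among high-state libraries alone they were -1.59 for Mt1 and -1.75 for Mt2, not called (adjusted p = 0.986 for both). At an unadjusted p under 0.05, 1412, 2332 and 1180 of all genes passed in these 3 comparisons, and of the 5 genes only Mtf1 in the non-cachectic diaphragm did.

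In non-cachectic mice without rFibcd1, TA held the lowest level of each of the 5 genes. Mt1 averaged 19.2 ± 9.20 TPM in TA (SD, n = 5), 51.6 ± 8.02 TPM in SOL (SD, n = 5) and 96.7 ± 19.8 TPM in the diaphragm (SD, n = 9). Steps between neighbors in this order were larger than the larger SD of the pair on the log2 scale, for Mt1 and also for Mt2. Between diaphragm and TA the log2 difference was 2.37 for Mt1, 2.06 for Mt2, 0.55 for Slc30a1 and 0.35 for Mtf1, all called among 72.5% of genes. With median-ratio scaling Slc30a1 was at 0.05 (adjusted p = 0.716) and Mtf1 turned to -0.13, neither of them called. The Dunn test did not call Mt1 (adjusted p = 0.0935), Mt2 (adjusted p = 0.121) or Slc30a1 (adjusted p = 0.0751). Between diaphragm and SOL the difference was 0.88 for Mt1 and 0.79 for Mt2, and none of the 5 genes was called against 38.8% of all genes. Between TA and SOL it was -1.49 for Mt1 (adjusted p = 0.0329), -0.89 for Slc30a1 and -0.35 for Mtf1, all called, as were 69.5% of genes, and Mtf1 turned to 0.18 with median-ratio scaling and was called in that direction (adjusted p = 0.0387). The Dunn test called Slc30a1 alone, with Mtf1 at an adjusted p of 0.0552 and Mt1 at 0.542. Mt1 was also not called with median-ratio scaling (-0.89, adjusted p = 0.197), with no filter on low values (adjusted p = 0.0565) or when Mt1 and Mt2 were summed (adjusted p = 0.0548). The Mt1 call between TA and SOL was lost when any of 5 libraries was left out, TA 61 and 64 or SOL 62, 63 and 65 (adjusted p of 0.0528 to 0.0842). With the number in the column name as a block, Mt1 (0.94, adjusted p = 0.00252), Mt2 (0.77, adjusted p = 0.0414) and Slc30a1 (-0.29, adjusted p = 0.0195) were called between diaphragm and SOL, and Mt2 (-1.27, adjusted p = 0.000789) and Slc39a14 (-0.84, adjusted p = 0.000244) between TA and SOL. The same block added Slc39a14 (0.67, adjusted p = 0.00194) between diaphragm and TA. The fit without the block took libraries of different muscles as independent.

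In the main fit, which took libraries of different muscles as independent, the cachexia effect on Mt1 and Mt2 differed between diaphragm and TA. It was smaller in the mock diaphragm than in TA by 2.55 on the log2 scale for Mt1, a difference of -2.55 (SE 0.768, adjusted p = 0.0459), and the difference was -3.29 for Mt2 (SE 0.966, adjusted p = 0.0404). Of all genes 5.04% were called. Both calls were near the threshold: leaving out any 1 of 10 libraries ended that of Mt2, and any 1 of 26 that of Mt1. Neither was made with no filter on low values. Without TA cachectic library 8 the differences were -1.89 for Mt1 (adjusted p = 0.169) and -2.64 for Mt2 (adjusted p = 0.144). With the column number as a block they were -2.53 (adjusted p = 0.000106) and -3.11 (adjusted p = 0.000183). In the cachectic groups, mean log2(TPM + 1) of Mt1 was 9.28 in the mock diaphragm and 9.46 in TA, and that of Mt2 9.06 and 10.3. These steps were within the larger SD of the pair, whereas in the non-cachectic groups TA was below the diaphragm for both genes. Between diaphragm and SOL the effects differed by -0.31 for Mt1 and -0.53 for Mt2, with none of the 5 genes and 2.52% of all genes called. Between TA and SOL they differed by 2.24 for Mt1 (adjusted p = 0.0640) and 2.76 for Mt2 (adjusted p = 0.0691), not called, against 20.4% of all genes. With the block these became 2.24 (adjusted p = 0.000117) and 2.76 (adjusted p = 0.000180), and Slc30a1 was called at 0.55 (adjusted p = 0.00479). For Slc39a14 the effects in the 3 muscles differed by -0.31 to -0.00, with no call. The 3 response comparisons share groups.

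Numbers in the column names recur across muscles. Columns numbered 6 to 10 occur in the cachectic groups of the 3 muscles (mock in the diaphragm). Their order by Mt2 was the same in each muscle, with 8 first, followed by 7, 9, 10 and 6. Library 8 held 2829 TPM in the diaphragm, 7579 TPM in TA and 1899 TPM in SOL, and library 6 held 176, 487 and 121 TPM. Slc39a14 was also highest in library 8 of these 5 in each muscle, at 30.4, 34.98 and 48.7 TPM. The highest diaphragm values lay outside these 5, in cachectic mock library 20, with 2851 TPM of Mt1, 3572 TPM of Mt2 and 105 TPM of Slc39a14. In the non-cachectic groups, Mt2 of number 62 was highest of the 5 in TA and SOL and lowest of the 5 in the diaphragm.

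**Figure D5:**
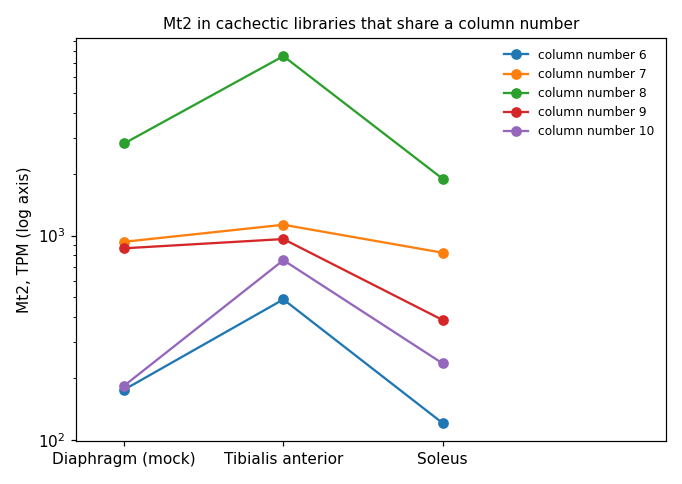
Mt2 TPM (log axis) in the 5 cachectic libraries of each muscle whose column names share a number, joined by lines. The lines do not cross, from number 8 at 1899 to 7579 TPM down to number 6 at 121 to 487 TPM.

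Within each diaphragm group, Mt2 was related to the other 4 genes, giving 16 relations on log2(TPM + 1), with permutation tests adjusted over them. In the cachectic mock group (n = 10), Mt2 and Mt1 had r = 0.996 (adjusted permutation p = 0.00016) and rho = 0.988, with r = 0.994 without the 2 libraries farthest in Mt2 and 0.995 within the high state. Mt2 and Slc39a14 had r = 0.906 (adjusted permutation p = 0.00024) and rho = 0.903, with r = 0.933 without those 2 libraries. Mt2 and Slc30a1 had r = 0.838 (adjusted permutation p = 0.00960) and rho = 0.891 (adjusted permutation p = 0.00496). The Pearson relation was not called without the 2 farthest libraries, where r was 0.597 (n = 8, adjusted permutation p = 0.262), and r was 0.744 within the high state (n = 9). In the cachectic rFibcd1 group (n = 10), Mt2 and Mt1 had r = 0.932 (adjusted permutation p = 0.00133) and rho = 0.891, and 0.962 without the 2 farthest. In that group the relations of Mt2 with Slc39a14 (r = 0.700, adjusted permutation p = 0.0605) and with Slc30a1 (r = 0.199) did not pass. In the non-cachectic rFibcd1 group (n = 10), only Mt2 and Slc30a1 passed, with r = 0.758 (adjusted permutation p = 0.0393) and rho = 0.745, which missed the threshold for rho (adjusted p = 0.0537), without the 2 farthest libraries (r = 0.755, adjusted p = 0.0997) and was 0.504 within the high state. The relation of Mt2 with Mt1 did not pass there (r = 0.01), with r = 0.353 without the 2 farthest libraries and 0.420 within the high state. No relation passed in the non-cachectic mock group (n = 9). No relation of Mt2 with Mtf1 passed, the lowest r being -0.655 in the cachectic rFibcd1 group (adjusted permutation p = 0.0631).

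The genes most like Mt2 over the 59 libraries, among 8763 genes with a mean of at least 5 TPM, were Mt1 (r = 0.963), Tmem252 (0.927), the amino acid transporter subunit Slc3a2 (0.926), the transcription factor Cebpd (0.925) and Rab7 (0.922). Over deviations from the group means of the 39 diaphragm libraries they were Mt1 (r = 0.906), the acute-phase gene Serpina3n (0.876), Tmem252 (0.853), Cnksr1 (0.848) and Gabarap (0.847). For Slc39a14 they were Mtor, Mknk2, Ranbp9, Tmbim1 and Clcc1 over all libraries (r of 0.865 to 0.879), and Ctsl, a lysosomal protease, Tmbim1, Clcc1, Atp6v1h and Ranbp9 over the diaphragm deviations (r of 0.855 to 0.879). Mtf1 stood at place 5427 of the 8763 genes by likeness to Mt2 over all libraries (r = 0.221). These values are descriptions, and the points share groups and scaling.

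The other genes of the zinc system had smaller estimates than Mt1 and Mt2. Mt3, a metallothionein best known from the brain, rose in TA (1.51, SE 0.274, adjusted p = 0.00193) and was not called in the mock diaphragm (0.43, adjusted p = 0.0879), with rFibcd1 (0.57, adjusted p = 0.0563) or in SOL (0.87, adjusted p = 0.0785). Mt4 was too low to be tested. Of 14 ZIP importers, 11 passed the filter on low values in the diaphragm. In the mock groups 4 rose, Slc39a14, Slc39a1 (0.52), Slc39a13 (0.26) and Slc39a7 (0.25), with a list median of 0.26 against 0.20 over all genes. With rFibcd1, Slc39a1 rose by 0.39 and Slc39a3 fell by 0.28. In TA 4 of 8 rose, Slc39a14, Slc39a13 (0.71), Slc39a1 (0.63) and Slc39a10 (0.56), with a median of 0.56 against 0.41. In SOL only Slc39a14 of 9 was called. Of 10 ZnT exporters, 7 passed the filter in each muscle. Slc30a2, which loads zinc into vesicles, rose in the mock diaphragm (0.77, adjusted p = 0.00213), in TA (1.45, adjusted p = 3.28e-05) and in SOL (1.22, adjusted p = 0.000777), where it was the 1 exporter called. Slc30a4 (0.37) and Slc30a6 (0.26) also rose in the mock diaphragm, and Slc30a1, Slc30a4 (0.66), Slc30a5 (0.59) and Slc30a7 (0.46) in TA. With rFibcd1 Slc30a1 was the 1 exporter called. These counts are to be read against the 33.5% of all genes called in the mock diaphragm, 9.11% with rFibcd1, 60.2% in TA and 25.1% in SOL, and the ZIP counts in TA and SOL and the ZnT count in SOL were below those shares. The ZIP count in the mock diaphragm was near the share, and the ZnT counts in the mock diaphragm (3 of 7) and TA (5 of 7) were not far above it.

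Genes of pathways that touch metallothioneins were counted in the same fits, against the same shares of all genes (33.5%, 9.11%, 60.2% and 25.1%). These lists and the zinc lists above were chosen with earlier results of these data known. Their counts therefore describe the data and are no test of a pathway. Of the interleukin-6 and acute-phase list, 13 of 14 tested genes rose in the mock diaphragm, 9 of 14 with rFibcd1, 13 of 13 in TA and 10 of 12 in SOL. The list medians were 1.74, 1.16, 2.12 and 1.25. Serpina3n, a secreted protease inhibitor, rose by 4.37, 3.35, 5.00 and 3.72 in these comparisons. Of 11 glucocorticoid-response genes, 7 were called in the mock diaphragm, 1 with rFibcd1, 7 in TA and 6 in SOL, and Fkbp5, a chaperone induced by glucocorticoids, rose by 2.74, 1.46, 3.13 and 1.78. The counts with rFibcd1 and in TA were near the share of all genes. Of 8 copper-handling genes tested, 2 rose in the mock diaphragm, 0 with rFibcd1, 6 in TA and 2 in SOL, with the copper-carrying ferroxidase Cp at 0.72, 1.08 and 0.81 in the 3 comparisons without rFibcd1. The copper count was below the share of all genes in the mock diaphragm, with a list median of 0.20 as for all genes, and near that share in SOL. Of 7 oxidative stress genes, 2, 1, 6 and 2 were called, with the heme oxygenase Hmox1 rising by 0.84 in the mock diaphragm, 0.89 with rFibcd1 and 1.61 in TA. The oxidative stress counts were likewise below or near the share of all genes in the mock diaphragm and SOL.

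Markers of macrophages and neutrophils were counted in the same way. The marker calls in this paragraph are to be read against the share of all genes called. It was 33.5% in the mock diaphragm, 9.11% with rFibcd1, 60.2% in TA and 25.1% in SOL. Of 5 macrophage markers, 2 were called higher in the mock diaphragm, near the share of all genes, 0 with rFibcd1, and 4 of 4 tested in TA. In SOL only Cd68 was called (1.99, adjusted p = 0.0176), while the estimates were -0.52 for Csf1r, -0.13 for Adgre1 and -0.10 for Mrc1, none called, and the list median was -0.10 against 0.09 for all genes. Of neutrophil markers, S100a8 and S100a9 passed the filter, and both were called higher in the mock diaphragm, TA and SOL and neither with rFibcd1. Ngp, Camp and Ly6g did not pass, with medians of 0 to 0.111 TPM in the cachectic groups without rFibcd1. The neutrophil calls thus rest on 2 genes. Bulk RNA does not separate fewer cells of a type from less RNA per cell. The summed TPM of 5 macrophage markers was 32.2 to 67.02 in the non-cachectic and 43.0 to 164 in the cachectic mock diaphragm, 4.65 to 8.69 and 7.33 to 51.0 in TA, and 16.3 to 25.8 and 15.7 to 108 in SOL. For 5 neutrophil markers the ranges were 2.99 to 20.4 and 9.33 to 53.5 in the mock diaphragm, 0.953 to 3.65 and 6.47 to 49.3 in TA, and 2.71 to 4.64 and 7.31 to 30.0 in SOL. Camp was at 0 in the 5 non-cachectic TA libraries and Ngp in the 5 non-cachectic SOL libraries. The part of these cells in the metallothionein levels was not tested. Liver markers, of a tissue rich in metallothioneins, summed to between 0.496 and 9312 TPM in the diaphragm. The non-cachectic mock library with the sum of 9312 TPM, library 64, held 133 TPM of Mt1 and 44.1 TPM of Mt2, and it was also the library with 10.6 TPM of Slc39a14. In TA the liver sum was 0.0648 to 0.542 TPM with the non-cachectic and 0.339 to 29.3 TPM with the cachectic melanoma, with medians of 0.149 and 3.05 TPM. In SOL it was 0.298 to 75.0 TPM and 0.215 to 1.22 TPM. The part of liver RNA in these levels was not tested. The sum of 3 fibroblast markers was 113 to 213 TPM in non-cachectic and 196 to 421 TPM in cachectic TA, with Pdgfra and Dcn called higher and Col1a1 at -0.67 and not called (adjusted p = 0.211). It was 473 to 606 TPM and 179 to 456 TPM in SOL, with Dcn (-0.72) and Col1a1 (-2.33) called lower. Melanocyte markers had a median sum of 0.264 TPM in the cachectic and 0.263 TPM in the non-cachectic mock diaphragm.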

How the data were processed

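RNA-seq was measured in 59 muscle libraries of 8 groups, which were set from the sample labels. The authors deposited TPM values for 47643 gene symbols, made, per the study's methods, by alignment to GRCm38 (mm10) in CLC Genomics Workbench; the annotation is not given in the sources used here. TPM keeps no depth, so no counting error was computed. Per the study's methods, replicates of in vivo experiments came from separate animals. The labels do not tie columns of different muscles to a mouse.

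Values were transformed to log2(TPM + 1), which understates changes of low genes. Genes with TPM of at least 1 in as many samples as the smallest group were tested by limma 3.58.1 (R 4.3.3, trend, two-sided, Benjamini-Hochberg over all genes, threshold 0.05). The 39 diaphragm libraries, the 10 TA libraries, the 10 SOL libraries and the 39 libraries of 6 groups without rFibcd1 were fitted separately. Dunn tests after Kruskal-Wallis ranks, as in the study, were an alternative. The script was tested on simulated data. Correlations and ratios used permutation tests (scipy 1.17.1; exact, or 100000 resamples).

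Columns carry a number in their names that is not the labels' replicate number, so they were used as unnumbered members of groups. Numbers shared by the 3 muscles were checked for pairing: deviations of same-numbered libraries correlated with r of 0.133 to 0.502 between diaphragm and TA, 0.196 to 0.493 between TA and SOL, and 0.0101 to 0.450 between diaphragm and SOL, over 0.1 in 10, 10 and 8 of 10 pairs. The same number gave the highest r in 10 of 10 pairs between diaphragm and TA, 8 of 10 between TA and SOL and 7 of 10 between diaphragm and SOL. Same-numbered libraries were thus mostly, but not always, the most alike. This comes from the data, and the labels do not say that a number stands for a mouse. The block by column number used the numbers for all 3 muscles.

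The 5 genes and the gene lists were chosen with earlier results of these data known. Named genes were the 5 genes, called genes of the metallothionein, ZIP and ZnT lists, at most 3 called genes per other list and comparison, and the 5 genes most like Mt2 and Slc39a14. Summed TPM of the marker lists of skeletal muscle, liver, macrophages, neutrophils and melanocytes is given in the report, without every member being named. Summed medians of adipocyte markers were 763 and 272 TPM in cachectic and non-cachectic mock diaphragm, of B and plasma cell markers 20.1 and 14.0, of mesothelium 151 and 116, of red blood cells 5110 and 4609, of endothelium 188 and 167, and of fibroblasts 935 and 674. For these lists other than fibroblasts, the ratio of cachectic to non-cachectic medians was 1.35 to 1.498 in TA and 0.657 to 1.17 in SOL. Alternatives were a pseudocount of 0.1, no filter, median-ratio scaling, Dunn tests, Mt1 and Mt2 summed, library state or a clock-gene index as a term, high-state libraries only, fits of 2 groups, and leaving out each library. The block by column number, the fits without column number 8, the ratio among high-state libraries and the variants of the correlations were added after seeing the data.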

Additional observations from a re-analysis of the deposited data

Results flagged for a closer look

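In 3 of 40 sets of 1 gene in 1 group, a library stood apart from the rest by Dixon's criterion, which chance meets in about 1 in 20 groups. Mtf1 was at 3.04 TPM in cachectic rFibcd1 diaphragm library 11, below the other libraries of its group. Slc39a14 was at 10.6 TPM in non-cachectic mock diaphragm library 64, which also held the highest liver marker sum, and at 34.98 TPM in cachectic TA library 8, which also held the highest Mt1 and Mt2. The roles of liver RNA and of the mouse in these values were not tested.

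Of 20 differences of effect between muscles or treatments, 2 passed the test of the difference itself. The cachexia effect in the mock diaphragm minus that in TA was -2.55 on the log2 scale for Mt1 and -3.29 for Mt2. Both calls were lost without TA cachectic library 8 (adjusted p = 0.169 and 0.144) and with no filter on low values. With the block by column number both were called, as were the differences between TA and SOL for Mt1 (2.24, adjusted p = 0.000117), Mt2 (2.76, adjusted p = 0.000180) and Slc30a1 (0.55, adjusted p = 0.00479).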

How the results depend on the processing

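TPM gives no depth, so precision is limited by the number of libraries, and in TA and SOL by 5 a group; library state coincides there with the melanoma. The number of the 5 genes called changed as follows, with the cause not tested. With median-ratio scaling it was 2 instead of 5 in TA, 2 instead of 4 for the diaphragm-TA level, 2 instead of 3 for the TA-SOL level and 1 instead of 0 for the diaphragm-SOL level. With the Dunn test it was 0 instead of 3 in the rFibcd1 diaphragm, 1 instead of 4 for the diaphragm-TA level and 1 instead of 3 for the TA-SOL level. Among high-state libraries it was 0 in the rFibcd1 diaphragm and 2 instead of 3 in the mock diaphragm, and with the clock-gene index 2 instead of 3 in the rFibcd1 diaphragm. With no filter it was 0 instead of 2 for the diaphragm-TA response, 4 instead of 5 in TA and 2 instead of 3 for the TA-SOL level, and with Mt1 and Mt2 summed, where the 1 test of the sum counts for both genes, 2 instead of 0 for the TA-SOL response (both from the sum) and 2 instead of 3 for the TA-SOL level (neither from the sum). In the fit of 2 groups, rFibcd1 in non-cachectic mice had 1 instead of 0. With the replicate block by column number the count was 3 instead of 0 for the diaphragm-SOL level, 5 instead of 3 for the TA-SOL level and 3 instead of 0 for the TA-SOL response; it changed no call of the other 3 comparisons between muscles other than Slc39a14 between diaphragm and TA. No paired analysis was possible within a muscle, because the groups compared there share no column number. Without the 2 farthest libraries, 3 instead of 5 correlations passed, and 4 by rho. Leaving out single libraries gave 3 to 5 in TA (3 without TA non-cachectic library 61, 63 or 64), 0 to 2 for the diaphragm-TA response and 0 to 2 for the TA-SOL response. In TA, Mtf1 was not called without cachectic library 10 or any of the non-cachectic libraries (adjusted p up to 0.0646), nor Slc30a1 without cachectic library 9 or non-cachectic library 61, 63 or 64 (adjusted p up to 0.0601).

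Signs changed in 18 settings other than leaving out a library. With median-ratio scaling these were Mtf1 in the mock diaphragm (-0.072), in TA (-0.066), in the levels diaphragm-TA (-0.13), diaphragm-SOL (0.041) and TA-SOL (0.18) and in the TA-SOL response (-0.13), Mt1 (-0.17) and Mt2 (-0.12) for rFibcd1 in non-cachectic mice, and Slc39a14 in the diaphragm-TA response (0.16). With state as a term, Mtf1 in the mock diaphragm was -0.024 and Mt2 for rFibcd1 in non-cachectic mice -0.095. Among high-state libraries, Mtf1 for rFibcd1 in cachectic mice was 0.042, Slc39a14 and Slc30a1 for rFibcd1 in non-cachectic mice 0.099 and 0.058, and the Slc30a1 difference between the cachexia effects with rFibcd1 and mock -0.033. With the clock-gene index, Slc30a1 for rFibcd1 in non-cachectic mice was 0.044. With a pseudocount of 0.1, Mtf1 in the diaphragm-SOL level was 3.5e-05, and with the block Mtf1 in the diaphragm-SOL response was 0.085. Leaving out single libraries gave ranges across 0 for rFibcd1 in cachectic mice (Mtf1 -0.073 to 0.049, Slc30a1 -0.021 to 0.13), rFibcd1 in non-cachectic mice (Mt1 -0.032 to 0.067, Mt2 -0.090 to 0.18, Slc39a14 -0.046 to 0.13), SOL (Slc30a1 -0.093 to 0.079), the diaphragm-SOL level (Mtf1 -0.059 to 0.055), the diaphragm-TA response (Slc39a14 -0.33 to 0.50), the diaphragm-SOL response (Mt1 -0.59 to 0.13, Mtf1 -0.063 to 0.065, Slc39a14 -0.64 to 0.031) and the TA-SOL response (Slc39a14 -0.81 to 0.035).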
